A study of Mus musculus with 3 samples.

Results

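The Dlk1-Dio3 locus on mouse chromosome 12 holds one of the largest clusters of miRNAs in the genome, and its miRNAs were followed here in injured skeletal muscle. Its members were the rows of the miRNA table whose miRNA number is on a list of 50 numbers known from this locus, either arm and any letter suffix. For 48 of the 50 numbers a row was found (there was none for miR-654 or miR-3070). This gave 93 mature miRNAs from 51 precursors, of 1138 mature miRNAs in all. Small RNA sequencing was done on the tibialis anterior (TA), a muscle of the shin, in wild-type (WT) mice 10 weeks old. Cardiotoxin (CTX) is a venom protein that kills muscle fibers when injected, and the libraries stand for day 0 (uninjured), day 1 and day 3 after its injection. Saline was the control injection named in the labels, and the labels do not say whether the day 0 muscles received it. Each of the 3 libraries was a pool of 4 samples from its time point, so no time point had a replicate. The conditions could not be tested for that reason, and every ratio below compares 2 libraries, not 2 conditions.

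The libraries held 8507580, 6421056 and 9795076 miRNA reads on days 0, 1 and 3. Levels are given as CPM, the reads of an miRNA per 1000000 miRNA reads of its library. A level of 3 reads, taken as the floor of detection, was 0.353, 0.467 and 0.306 CPM on days 0, 1 and 3. All 95% intervals cover counting error only, since each day is 1 pooled library. PCR copies of a molecule are counted as separate reads, so the intervals can be too narrow even for that error. The tissue label was checked against miRNAs of skeletal muscle fibers. miR-1a-3p stood at 233587, 73841 and 88096 CPM on days 0, 1 and 3. Of 2 heart and slow-fiber miRNAs, miR-208b-3p was at 4, 1 and 10 reads and miR-499-5p at 2689, 1179 and 786 reads.

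The locus is imprinted. Its protein-coding genes Dlk1, Rtl1 and Dio3 are expressed from the paternal chromosome, and its noncoding RNAs and miRNAs from the maternal one. The miRNAs are processed from long noncoding transcripts that run in one direction, from Meg3 (Gtl2) through an RNA antisense to Rtl1 and through Rian to Mirg. The cluster is known for high expression in embryo, placenta and brain. In muscle, the transcription factor MEF2A is known to activate it. Several members have described roles there, such as miR-431 acting on Pax7, the transcription factor of satellite cells (the stem cells of muscle).

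On build GRCm38 the GENCODE M21 annotation places Dlk1 at chr12:109452823-109463336, Meg3 at chr12:109541001-109571726, Rian at chr12:109603940-109661716 and Mirg at chr12:109729764-109749460, all on the plus strand. Rtl1 lies at chr12:109589193-109600330 on the minus strand, and Dio3 at chr12:110279068-110281097 on the plus strand. Of the members, 91 are encoded on the plus strand and 2 on the minus strand (miR-3071-3p and miR-299b-3p). Mir770 lies in an exon of Meg3. The precursors Mir431, Mir433, Mir127, Mir434 and Mir136 lie opposite the Rtl1 exon, Mir341, Mir1188 and Mir370 in introns of Rian, 9 precursors in exons of Mirg and 4 in its introns. For 28 precursors no host gene was annotated, among them the long run from Mir379 to Mir539 between Rian and Mirg.

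Mature sequences came from RefSeq (GRCm38.p6), in which 89 of the 93 members were matched. miR-376c-3p, miR-487b-3p, miR-485-5p and miR-539-3p are given by name only. The seed (bases 2 to 8, the part that pairs with target mRNAs) is in capitals. The first set holds the members with the most reads, miR-127-3p at chr12:109592888-109592909, miR-379-5p at chr12:109709065-109709085 and miR-411-5p at chr12:109710190-109710210, all on the plus strand.
miR-127-3p: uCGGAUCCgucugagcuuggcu
miR-379-5p: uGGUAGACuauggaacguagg
miR-411-5p: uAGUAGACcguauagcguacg
The second set holds the members that were furthest above day 0 on day 3 among those with 100 reads or more over the 3 libraries. All are on the plus strand, miR-154-3p at chr12:109738474-109738495, miR-409-3p at chr12:109743204-109743225, miR-541-5p at chr12:109742422-109742446, miR-134-5p at chr12:109734145-109734166 and miR-370-3p at chr12:109618305-109618326.
miR-154-3p: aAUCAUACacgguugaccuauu
miR-409-3p: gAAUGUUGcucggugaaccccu
miR-541-5p: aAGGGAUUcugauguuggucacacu
miR-134-5p: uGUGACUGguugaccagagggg
miR-370-3p: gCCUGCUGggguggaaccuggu
The third set holds the members furthest below day 0 on day 3 by the same rule. They are miR-539-5p at chr12:109728136-109728157, miR-434-3p at chr12:109594565-109594586, miR-136-5p at chr12:109595331-109595352, miR-300-5p at chr12:109724318-109724339 and miR-329-3p at chr12:109713541-109713562, all on the plus strand.
miR-539-5p: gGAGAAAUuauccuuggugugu
miR-434-3p: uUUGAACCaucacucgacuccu
miR-136-5p: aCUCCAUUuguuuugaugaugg
miR-300-5p: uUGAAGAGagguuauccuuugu
miR-329-3p: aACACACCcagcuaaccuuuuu
No seed is shared among these 13 miRNAs.

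The members together were lowest on day 1 and highest on day 3. They held 38847 reads in the day 0 library, 24219 in day 1 and 96861 in day 3. Of all miRNA reads these made up 0.457% (Wilson 95% interval 0.452 to 0.461), 0.377% (0.372 to 0.382) and 0.989% (0.983 to 0.995) in that order. The summed level was 4566, 3772 and 9889 CPM, so that day 3 was 2.62 times day 1 and 2.17 times day 0. Relative to day 1 the sum on day 3 was higher under every scaling tried. Relative to day 0 the log2 ratio of the sum on day 3 was 1.11 with library totals, 0.61 with totals that leave out the 10 most abundant miRNAs, 0.19 under edgeR's TMM and 0.00 under DESeq2's median of ratios. The size of the difference from day 0 therefore depended on the scaling, and under one of them there was none.

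At least 1 read was counted for 83 members on day 0, 85 on day 1 and 90 on day 3, and 100 reads or more for 28, 24 and 42. The ratios below use the 66 members with at least 30 reads over the 3 libraries. Of these 66, 36 reached 30 reads in each library, and 13 passed the minimum only through the day 3 library. The other 27 members had at most 19 reads in any library.

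Most of the reads came from 3 members. miR-127-3p, the miRNA encoded opposite Rtl1 that pairs perfectly with its mRNA, had 7452, 7693 and 24790 reads on days 0, 1 and 3, or 876, 1198 and 2531 CPM. Its level on day 3 was above day 0 under every scaling tried. Its log2 ratio of day 1 to day 0 was 0.45 with library totals and -0.16 with totals that leave out the 10 most abundant miRNAs, -0.49 with TMM and -0.59 with the median of ratios. miR-411-5p had 10747, 4977 and 19559 reads, or 1263, 775 and 1997 CPM, with its lowest level on day 1. With library totals its log2 ratio of day 3 to day 0 was 0.66, and the shifts of TMM (-0.93) and the median of ratios (-1.12) put it below day 0. miR-379-5p, the neighbour of miR-411 at the start of the downstream run, had 4222, 3099 and 20088 reads. Its levels were 496.3, 482.6 and 2051 CPM. The log2 ratio of day 3 to day 1 was 1.08 (95% interval 1.04 to 1.12) for miR-127-3p, 1.37 (1.32 to 1.41) for miR-411-5p and 2.09 (2.03 to 2.14) for miR-379-5p. The share of these 3 in the members' reads was 57.7%, 65.1% and 66.5%. Without them the other members summed to 1931, 1316 and 3310 CPM, which is the same order of the days with library totals. The shifts of TMM and of the median of ratios put this sum on day 3 below that on day 0.

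**Figure D1:**
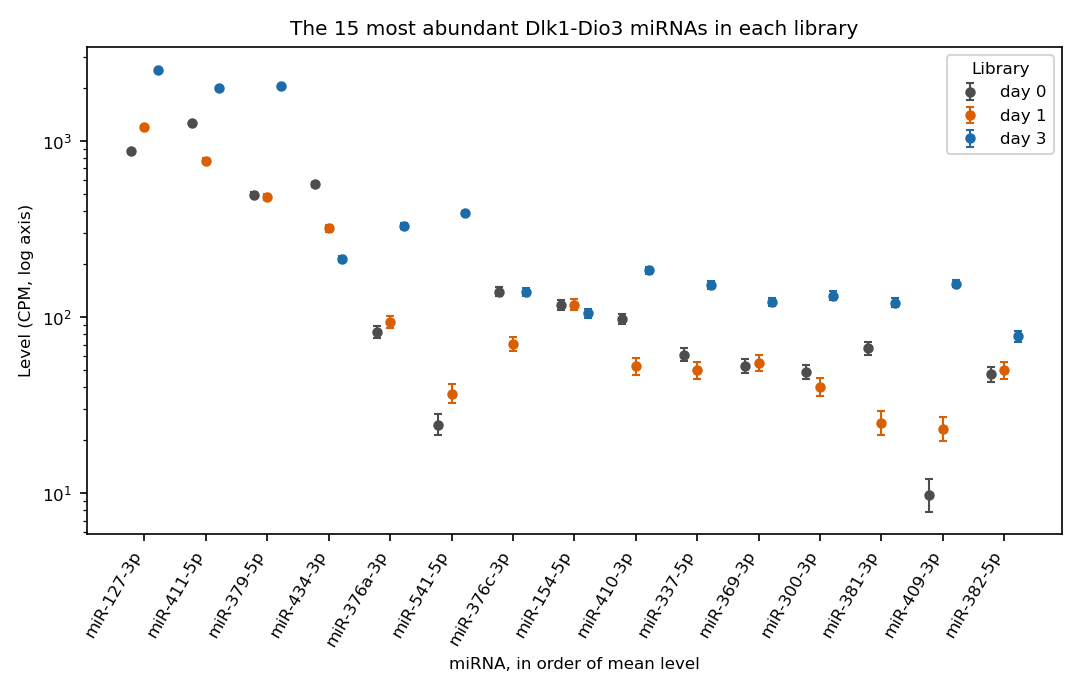
CPM (log axis) of the 15 members with the highest mean level in the day 0, day 1 and day 3 libraries, with Wilson 95% intervals that cover counting error only (1 pooled library per day). With library totals, the day 3 level was the highest of the 3 for most of them, up to 2531 CPM for miR-127-3p. miR-434-3p was highest on day 0 at 568 CPM, and miR-154-5p and miR-376c-3p were near their day 0 levels on day 3.

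The comparison of day 1 with day 0 asks what the first day after injury did to the miRNA profile. Most other miRNAs took a larger share of the reads on day 1 than on day 0, and 19 of the 64 Dlk1-Dio3 miRNAs with a ratio did. Of all 513 miRNAs with at least 30 reads, 53.0% were at least 2-fold higher on day 1 and 10.9% at least 2-fold lower. Among the 66 members, 4 were at least 2-fold higher (6.06%) and 16 at least 2-fold lower (24.2%). The lower count moved with the scaling, to 44 (66.7%, beside 24.4% of all miRNAs) under TMM and 47 (71.2%, beside 26.1%) under the median of ratios. The median log2 ratio was -0.58 over the members and 1.19 over all miRNAs, a difference of -1.77. The difference of medians is the same under any scaling of the libraries, and was -1.40 with 1 CPM added to each level. The members' median was below 0 with each scaling tried.

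The 4 members at least 2-fold higher on day 1 were miR-667-3p, miR-409-3p, miR-495-3p and miR-134-5p. miR-667-3p had 11 reads on day 0 and 28 on day 1, a log2 ratio of 1.75 (95% interval 0.70 to 2.91). miR-495-3p had 74 and 128 reads, a log2 ratio of 1.20 (0.77 to 1.63). miR-134-5p, known in neurons for repressing Limk1 in dendritic spines, had 75 and 120 reads, a log2 ratio of 1.08 (0.66 to 1.52). None of the 4 kept an interval wholly above 2-fold, and with TMM or median-of-ratios factors no member was 2-fold higher on day 1.

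The 5 members furthest below day 0 on day 1, among those with at least 100 reads over the 3 libraries, were the following. miR-381-5p had 106 reads on day 0 and 15 on day 1, or 12.5 and 2.34 CPM, a log2 ratio of -2.42 (95% interval -3.30 to -1.63). miR-300-5p had 97 and 15 reads, a log2 ratio of -2.29 (-3.18 to -1.49). Both were back above their day 1 level on day 3, at 11.2 and 5.41 CPM. miR-299a-5p was at 20.2, 5.61 and 11.3 CPM on days 0, 1 and 3. miR-493-5p was at 29.3, 8.57 and 16.4 CPM, and miR-329-3p at 66.9, 21.0 and 32.8 CPM. All of these 5 had their lowest level on day 1, and all but miR-381-5p, whose interval for day 3 against day 0 took in 0, stayed below day 0 on day 3.

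The comparison of day 3 with day 1 covers the days on which inflammation gives way to muscle regeneration. Of all 513 miRNAs, 23.6% were at least 2-fold higher on day 3 than on day 1 and 16.0% at least 2-fold lower. Among the 66 members, 48 were at least 2-fold higher (72.7%) and 0 at least 2-fold lower, and 60 had the higher level on day 3 by any amount. The median log2 ratio was 1.70 over the members and 0.01 over all miRNAs. Between 47 and 52 members were 2-fold higher under the other scalings of the libraries and with the deposited expression values, beside 22.81% to 28.65% of all miRNAs. In each of these settings 0 members were 2-fold lower, beside 10.33% to 17.93% of all miRNAs. Among the 53 members with at least 30 reads over the day 0 and day 1 libraries, a minimum chosen after seeing the data that leaves day 3 out, 37 were at least 2-fold higher (69.8%, beside 20.5% of all miRNAs). Among the 52 members with at least 10 reads in both libraries, 35 were at least 2-fold higher (67.3%, beside 19.5% of all miRNAs with this minimum). At least 4-fold higher were 28 of the 66 (42.4%, beside 12.5% of all 513). This count takes in members, such as miR-370-3p, that passed the minimum only through the day 3 library, so their higher level there followed in part from the filter. The lowest of the 3 levels was on day 1 for 41 of the 66 members (62.1%) and for 15.8% of all 513 miRNAs.

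Relative to day 0 and with library totals, the members on day 3 were close to all miRNAs in the shares past 2-fold. Of all 513 miRNAs, 57.3% were at least 2-fold higher on day 3 than on day 0 and 10.3% at least 2-fold lower. Among the members the counts were 36 of 66 higher (54.5%) and 7 lower (10.6%), near that background. At least 4-fold higher were 18 members (27.3%), beside 37.8% of all miRNAs. The median log2 ratio was 1.25 over the members and 1.44 over all miRNAs, a difference of -0.19. With median-of-ratios factors 16 members were at least 2-fold higher (24.2%, beside 35.7% of all miRNAs) and 17 at least 2-fold lower (25.8%, beside 25.5%), so the split against day 0 moved with the scaling. The day 0 library is shared by both comparisons with day 0, and the day 1 library by the comparisons of day 1 with day 0 and of day 3 with day 1.

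**Figure D2:**
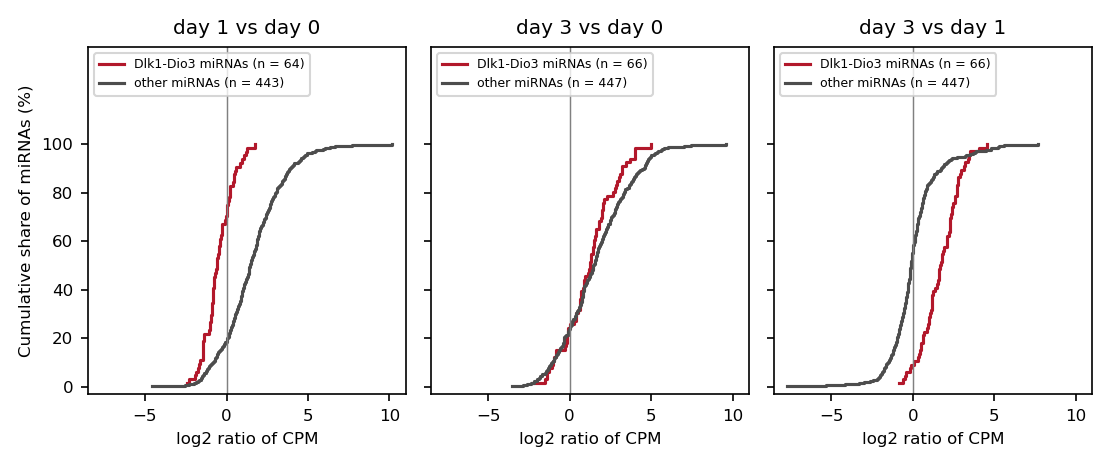
Cumulative share (%) of miRNAs against the log2 ratio of CPM for each pair of libraries, for the Dlk1-Dio3 miRNAs and for the other miRNAs with at least 30 reads over the 3 libraries (n is the number with a ratio, since 2 members were at or under 3 reads in both the day 0 and day 1 libraries). The members lie to the left of the others for day 1 against day 0 (median -0.58 against 1.43) and to the right for day 3 against day 1 (median 1.70 against -0.11). For day 3 against day 0 the curves are close at the lower quartile (0.07 for both). At the upper quartile the members lie to the left (2.05 against 2.92).

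The members furthest above day 0 on day 3 stood between 0.940 and 24.6 CPM in uninjured muscle. miR-541-5p, from an intron of Mirg, had 209, 237 and 3825 reads on days 0, 1 and 3, or 24.6, 36.9 and 390.5 CPM. Its day 3 level was 15.9 times that of day 0 (log2 3.99, 95% interval 3.79 to 4.20), and it was the 6th member by mean level. miR-409-3p had 83, 149 and 1521 reads, or 9.76, 23.2 and 155 CPM. miR-134-5p was at 8.82, 18.7 and 115 CPM. Of these 5 members, miR-409-3p and miR-134-5p were past 2-fold already between day 0 and day 1 with library totals. Under TMM their log2 ratios of day 1 to day 0 were 0.31 and 0.14. miR-154-3p had 36, 39 and 664 reads, a log2 ratio of day 3 to day 0 of 4.00 (3.52 to 4.53). miR-370-3p, from an intron of Rian, was at 0.940, 0.623 and 10.3 CPM from few reads, with a log2 ratio of 3.45 (2.42 to 4.71). All 5 stayed above day 0 by more than 2-fold on day 3 with the largest downward shift of any scaling, which was -1.12 on the log2 scale. The minimum of 100 reads for naming counts day 3 too, and miR-154-3p and miR-370-3p reached it only through that library.

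Between day 1 and day 3 the ratio was also large for 2 others. Both reached the minimum of reads for naming only through the day 3 library, so their place here followed in part from that minimum. miR-376b-3p had 34, 19 and 332 reads and miR-412-5p 32, 13 and 178, with day 3 to day 1 log2 ratios of 3.52 (95% interval 2.85 to 4.27) and 3.17 (2.36 to 4.10). miR-494-5p had 1, 1 and 36 reads, and its ratio of day 3 to day 0 therefore had the wide interval of 2.40 to 10.31 on the log2 scale. miR-1188-5p was the only member past the minimum with a library at 0 reads. It had 0, 4 and 32 reads, and its log2 ratio of day 3 to day 0 was 3.21 with day 0 set to the floor of 3 reads (lower 95% limit 2.83 from 0 reads).

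A small set of members did not have a higher level on day 3. miR-539-5p had 203, 56 and 47 reads on days 0, 1 and 3, or 23.9, 8.72 and 4.80 CPM. It was lower on each later day, and its log2 ratio of day 3 to day 0 was -2.31 (95% interval -2.80 to -1.85). miR-434-3p was at 568, 320 and 214.5 CPM, with a log2 ratio of day 3 to day 0 of -1.40 (-1.48 to -1.33). miR-136-5p was at 75.2, 43.4 and 30.8 CPM, with a log2 ratio of -1.29 (-1.49 to -1.09). With library totals, these 3 were the only members with at least 100 reads whose level went down at both steps by more than their counting intervals. For miR-136-5p the log2 ratio of day 3 to day 1 was -0.495 with library totals and -0.18 with the deposited expression values. miR-154-5p was at 117, 118 and 105 CPM and differed little between the libraries with library totals. Its log2 ratios to day 0 on days 1 and 3 were -0.94 and -1.08 under TMM, and -1.03 and -1.28 under the median of ratios. In total 6 of the 66 members had a lower level on day 3 than on day 1, each by less than 2-fold.

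Along the chromosome, the members with high ratios were not confined to a single stretch. On the Meg3 and Rtl1 antisense side, 22 members (15 past the minimum) summed to 1726, 1697 and 3244 CPM on days 0, 1 and 3. Of the 15, 8 were at least 2-fold higher on day 3 than on day 1, and the median log2 ratio was 1.08, beside 23.6% of all 513 miRNAs and a median of 0.01. On the Rian side, 5 members (3 past the minimum) summed to 32.3, 25.5 and 91.8 CPM, and all 3 were at least 2-fold higher. Of these 3, miR-1188-5p and miR-370-3p passed the minimum only through the day 3 library, so that their higher level there followed in part from the filter, and miR-341-3p remains. On the Mirg side, which takes in the run from Mir379 onwards, 66 members (48 past the minimum) summed to 2808, 2049 and 6553 CPM. Of the 48, 37 were at least 2-fold higher on day 3 than on day 1, with a median log2 ratio of 1.81. The minimum of 30 reads over days 0 and 1 leaves out 2 members of the first side and 9 of the last. With it the counts were 7 of 13 (53.8%) and 29 of 39 (74.4%), beside 20.5% of all miRNAs with that minimum. Relative to day 0 and with library totals, the median log2 ratio on day 3 was 1.44 over all 513 miRNAs and 1.25 on the Mirg side. The median of the Mirg side was 0.33 under TMM and 0.13 under the median of ratios, and above 0 with every scaling. On the Meg3 and Rtl1 antisense side it was 0.42 with library totals, -0.51 under TMM and -0.70 under the median of ratios. The differences between the sides were not tested.

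**Figure D3:**
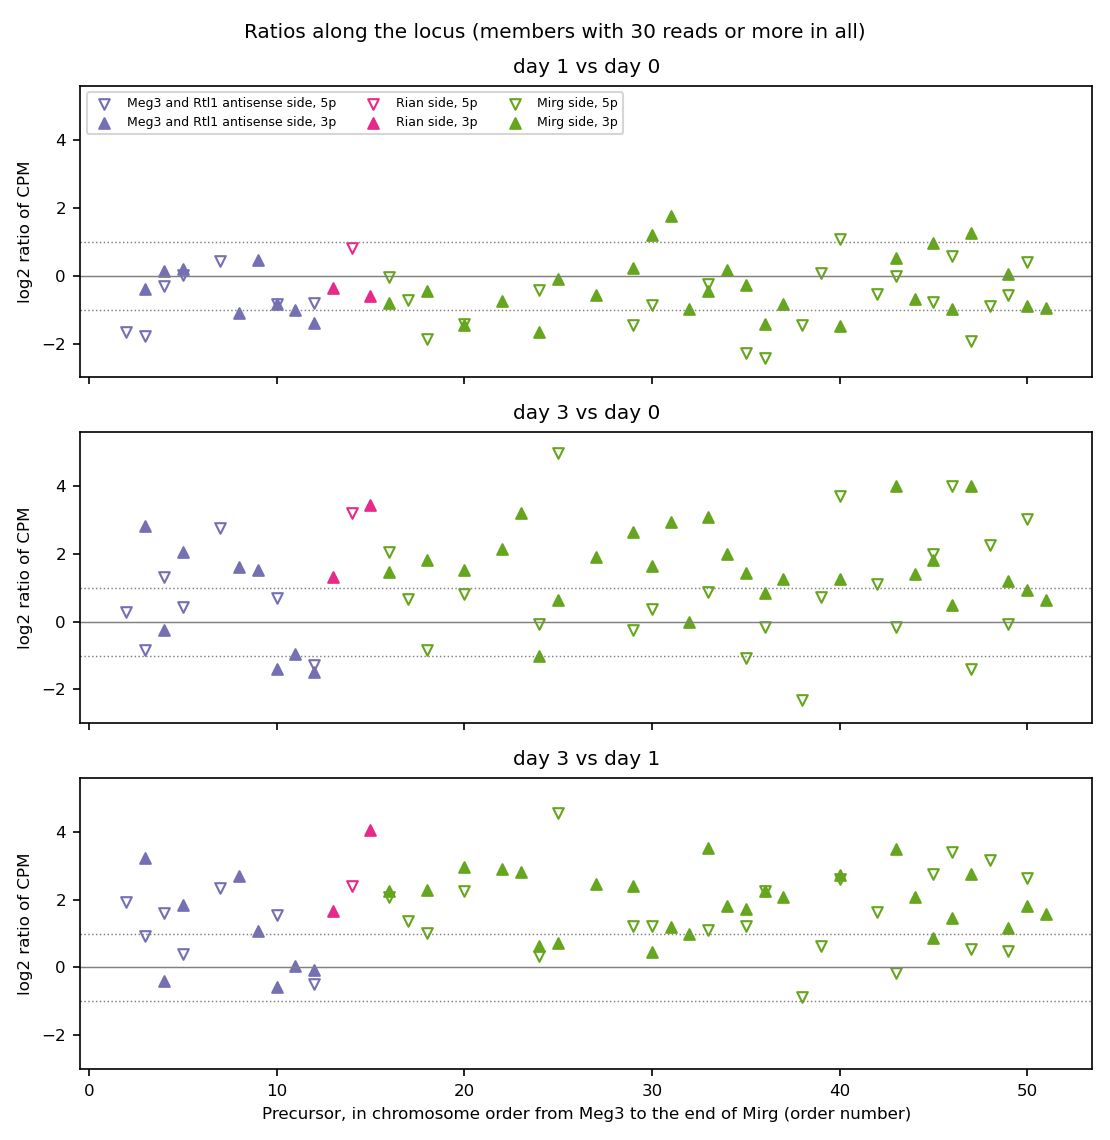
log2 ratio of CPM for the members with at least 30 reads over the 3 libraries, against the order number of their precursor along the chromosome, for each pair of libraries (open triangles 5p arms, filled triangles 3p arms, colours the side of the locus, dotted lines 2-fold). Most points lie below 0 for day 1 against day 0, and for day 3 against day 1 all but 6 lie above 0 and none lies below the lower dotted line.

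The miRNAs opposite Rtl1 went separate ways. miR-431-5p, described as acting on Pax7, had 117, 119 and 916 reads, or 13.8, 18.5 and 93.5 CPM, and its day 3 level was 6.80 times that of day 0. miR-433-3p had 267, 95 and 937 reads, or 31.4, 14.8 and 95.7 CPM, with its lowest level on day 1. miR-127-3p was also highest on day 3. miR-434-3p and miR-136-5p, encoded next to them within a few kilobases, were highest on day 0. The partner arms miR-127-5p, miR-431-3p and miR-433-5p had at most 11 reads in any library and gave no usable ratio. miR-136-5p lies opposite miR-3071-3p, with 20 bases in common on the other strand. miR-3071-3p had 51, 19 and 30 reads, and since the use of strand in the counting is not stated, this pair is uncertain. The same holds for miR-299a-5p and miR-299b-3p, which overlap by 18 bases on opposite strands.

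Other members with described roles in muscle cells or nerve had mid-range levels. miR-410-3p was at 97.4, 52.6 and 185 CPM on days 0, 1 and 3. miR-381-3p was at 66.6, 25.1 and 121 CPM, and the level on day 3 was 4.82 times that on day 1. With library totals the log2 ratio of day 3 to day 0 was 0.92 for miR-410-3p and 0.86 for miR-381-3p. The shift of the median of ratios (-1.12) put both below day 0. miR-382-5p had 405, 321 and 764 reads and was at 47.6, 50.0 and 78.0 CPM, which is below 2-fold in every pair of libraries. miR-495-3p had 74, 128 and 265 reads, and its log2 ratios to day 0 were 1.20 on day 1 and 1.64 on day 3 with library totals, and 0.25 and 0.71 with TMM factors. miR-376a-3p, from the miR-376 family known for A-to-I editing of its precursors, was at 82.6, 93.9 and 330 CPM. Its family member miR-376c-3p was at 140, 70.2 and 140 CPM. With library totals one was thus 3.99 times its day 0 level on day 3 and the other 0.999 times. Their log2 ratios of day 3 to day 0 were 1.07 and -0.93 under TMM, and 0.88 and -1.12 under the median of ratios. The near-identical arms miR-376b-5p and miR-376c-5p differ by 1 base and could share reads (153 and 7 reads in all).

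Each precursor yields a 5p and a 3p miRNA, and the ratio of the 2 arms within a library does not depend on how libraries are scaled. Both arms were listed for 42 precursors and both passed the minimum for 22. Of these 22, the ratios of day 3 to day 0 of the 2 arms were at least 2-fold apart for 17 (77.3%). Among all 148 miRNA precursors of the table with both arms past the minimum, 72 (48.6%) were that far apart. Between day 1 and day 0 the counts were 12 of 22 (54.5%) and 64 of 148 (43.2%), and between day 3 and day 1 12 of 22 (54.5%) and 59 of 148 (39.9%). In 8 of the 22 precursors an arm passed the minimum only through the day 3 library. Among the 14 others, 11 had arms at least 2-fold apart between day 3 and day 0, with the 3p arm ahead in 9 and the 5p arm in 2. Over the whole table it was 53 of 117 precursors (45.3%), with the 3p arm ahead in 29 and the 5p arm in 24. The difference was not tested.

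miR-154 had the largest move among the 20 precursors with at least 100 reads of both arms in each library. On day 0 its 5p arm held 96.5% of both arms' reads (999 of 1035, exact 95% interval 95.2 to 97.6). The share was 95.1% of 797 reads on day 1 (93.4 to 96.5), and 60.8% on day 3 (1032 of 1696, 58.5 to 63.2). The days 0 and 1 were alike, and day 3 stood apart. The arms were as follows.
miR-154-5p: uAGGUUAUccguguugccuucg
miR-154-3p: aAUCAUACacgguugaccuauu
miR-434 had a shift on the same day in the other direction. Its 5p arm held 6.70% on day 0 (347 of 5178, 6.04 to 7.42), 6.68% on day 1 (147 of 2200, 5.67 to 7.81) and 23.7% on day 3 (653 of 2754, 22.1 to 25.4). With library totals the level of miR-434-5p was 40.8, 22.9 and 66.7 CPM, highest on day 3, while that of the 3p arm was lowest there. The log2 ratio of miR-434-5p for day 3 against day 0 was 0.71. The shifts of TMM (-0.93) and the median of ratios (-1.12) put it below day 0.
miR-434-5p: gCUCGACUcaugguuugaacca
miR-434-3p: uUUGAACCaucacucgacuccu

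In other precursors the 5p share was lower already on day 1. For miR-409 it was 23.1% on day 0 (25 of 108 reads, exact 95% interval 15.6 to 32.2), 3.25% on day 1 (5 reads, 1.06 to 7.41) and 0.718% on day 3 (11 of 1532, 0.359 to 1.28). For miR-369 it was 52.0%, 41.2% and 30.6%, with both arms well covered (933, 597 and 1723 reads). For miR-495 it was 28.2%, 8.57% and 14.0%, with intervals that overlap between days 1 and 3. The 5p share of miR-300 was 18.9%, 5.49% and 3.91% on days 0, 1 and 3. In contrast miR-127, miR-376a and miR-376c were read almost wholly from the 3p arm, and miR-411 and miR-379 from the 5p arm, in all 3 libraries.

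**Figure D4:**
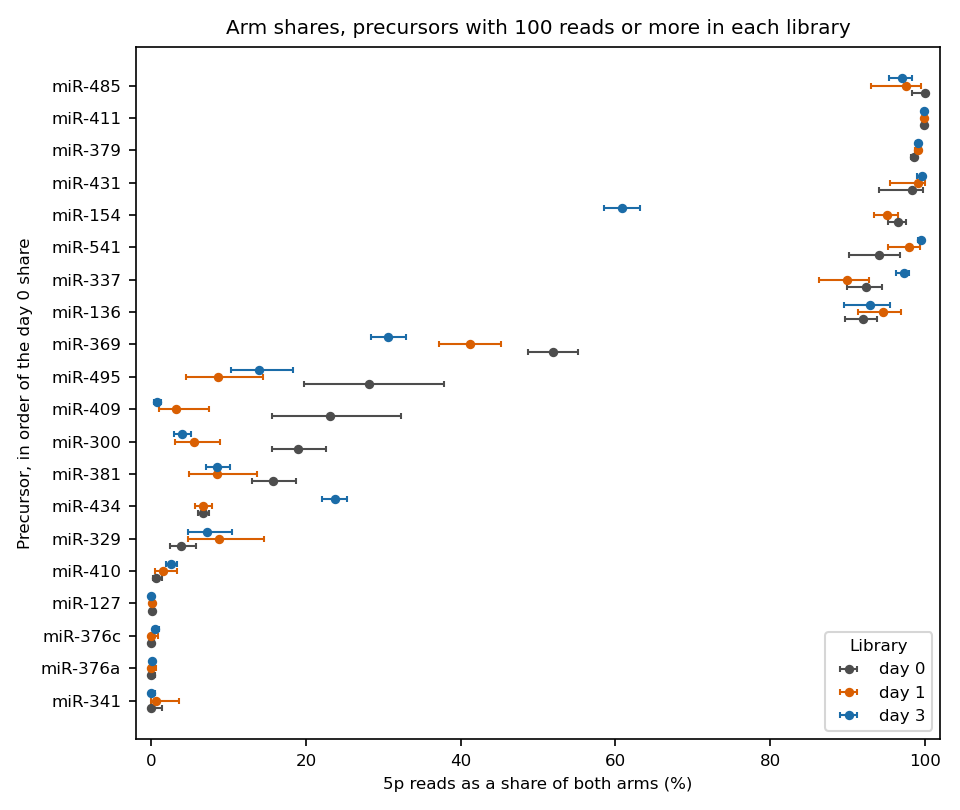
Share (%) of 5p reads among the reads of both arms for the 20 precursors with at least 100 reads of both arms in each library, by library, with exact 95% binomial intervals that cover counting error only. The day 3 share stands far below the others for miR-154 (60.8% against 96.5% on day 0) and above them for miR-434 (23.7% against 6.70%).

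The members whose sequence was matched carried 83 distinct seeds, and 6 seeds were shared by a pair of members each. The most abundant shared seed was that of miR-379-5p and miR-1193-5p, of which miR-1193-5p had only 1, 1 and 6 reads. Another was that of miR-410-5p and miR-494-5p, which were both near the floor before day 3 and summed to 0.705, 0.934 and 8.47 CPM on days 0, 1 and 3. These pairs are shown because members with the same seed can pair with the same target sites.
miR-379-5p: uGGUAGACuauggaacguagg
miR-1193-5p: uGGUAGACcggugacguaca
miR-410-5p: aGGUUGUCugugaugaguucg
miR-494-5p: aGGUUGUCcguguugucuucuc
Outside the locus, 6 miRNAs of the table shared a seed with a member. One pair with both partners past the minimum was miR-377-5p and miR-672-5p, with log2 ratios of day 3 to day 0 of 1.98 and 2.77. miR-377-5p passed the minimum only through the day 3 library. Another such pair was miR-329-3p and miR-362-3p, which is encoded on the X chromosome. miR-329-3p was at 66.9, 21.0 and 32.8 CPM, below day 0 on both days, and miR-362-3p at 1.29, 9.19 and 15.8 CPM, above day 0 on both days.
miR-329-3p: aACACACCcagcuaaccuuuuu
miR-362-3p: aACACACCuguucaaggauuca

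The 63 matched members past the minimum had a median GC content of 45.5% and a median length of 22 bases, beside 47.8% and 22 bases for 425 miRNAs of the whole table. Across these members, Pearson's r between GC content and the log2 ratio was 0.33 for day 3 against day 0 (n = 63) and 0.08 across all matched miRNAs (n = 425). For day 1 against day 0 it was 0.20 (n = 61) beside 0.05 (n = 419), and for day 3 against day 1 0.29 (n = 63) beside 0.04 (n = 425). The 63 take in members that passed the minimum only through the day 3 library. These are weak relations across miRNAs that share the same libraries, given as a description. The median log2 ratio of day 3 to day 0 was 1.52 over 34 members of the 3p arm and 0.66 over 29 of the 5p arm. Over all matched miRNAs it was 1.51 for 3p arms and 1.25 for 5p arms.

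miRNAs from a chosen list of other imprinted loci, which does not cover every such locus, also had their highest CPM on day 3. These were miR-675 (from H19), miR-483 (from Igf2), miR-296 and miR-298 (from the Gnas region) and miR-335 (from Mest), with 10 mature miRNAs in the table. Together they were at 201, 182 and 1292 CPM on days 0, 1 and 3. Without miR-675-3p the other 9 were at 97.8, 145 and 840.1 CPM, with day 1 above day 0, and 5 of the 10 had a higher level on day 1 than on day 0. The minimum of 30 reads was reached only through the day 3 library by 4 of the 10. All 10 were at least 2-fold higher on day 3 than on day 0 (beside 57.3% of all miRNAs), and 9 with TMM factors. Of the 6 with at least 30 reads over days 0 and 1, 5 were at least 2-fold higher on day 3 than on day 1, beside 20.5% of all miRNAs with that minimum. miR-675-3p, the most abundant of them, had 877, 235 and 4429 reads, or 103, 36.6 and 452 CPM. miR-335-3p had 48, 205 and 3061 reads. The list leaves out the repeat families miR-466, miR-467, miR-669 and miR-297 of the imprinted Sfmbt2 locus, whose miRNAs went both ways between day 1 and day 3. The log2 ratio of day 3 to day 1 was -0.67 for miR-467a-5p and -0.55 for miR-669a-5p. It was 0.32 for both miR-467b-5p and miR-297a-5p. Imprinted miRNAs as a class were not tested.

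miRNAs that mark cell types also took different shares of the reads in the 3 libraries. The 5 myofiber miRNAs (miR-1a-3p, miR-133a-3p, miR-499-5p, miR-208b-3p and miR-486a-5p) held 26.1%, 8.67% and 9.59% of the reads in the order of the days. miR-206-3p and miR-133b-3p, which mark activated or regenerating muscle cells, held 1.36%, 0.503% and 18.2%. Most of this was miR-206-3p, at 12384, 4781 and 180001 CPM, while miR-133b-3p was at 1240, 246.8 and 1644 CPM. The 7 leukocyte miRNAs, miR-223-3p among them, held 0.549%, 2.15% and 1.00%. On day 0 most of that share was miR-150-5p (4733, 8307 and 3197 CPM), while miR-223-3p was at 97.8, 7815 and 1896 CPM and miR-146a-5p at 344.5, 2000 and 2524 CPM. The 3 stromal miRNAs, miR-199a-3p, miR-199a-5p and miR-214-3p, held 0.202%, 0.369% and 0.624%. The 2 endothelial miRNAs held 5.94%, 13.3% and 5.87%, the 2 smooth muscle miRNAs 3.49%, 6.38% and 2.53%, and the 2 erythroid miRNAs 0.714%, 2.53% and 1.26%. The part of the cell makeup in the members' levels was not tested. In bulk tissue, fewer cells of a type and less RNA per cell cannot be told apart.

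The scaling of the libraries shifted every log2 ratio of a comparison by the same amount. The 10 miRNAs with the most reads over the 3 libraries held 73.5%, 59.4% and 62.3% of the reads. Against library totals, TMM factors moved all ratios by -0.94 for day 1 against day 0, by -0.93 for day 3 against day 0 and by 0.02 for day 3 against day 1. Median-of-ratios factors moved them by -1.04, -1.12 and -0.08. The comparison of day 3 with day 1 was therefore little affected by the choice, and both comparisons with day 0 were shifted by about 1 log2 unit.

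**Figure D5:**
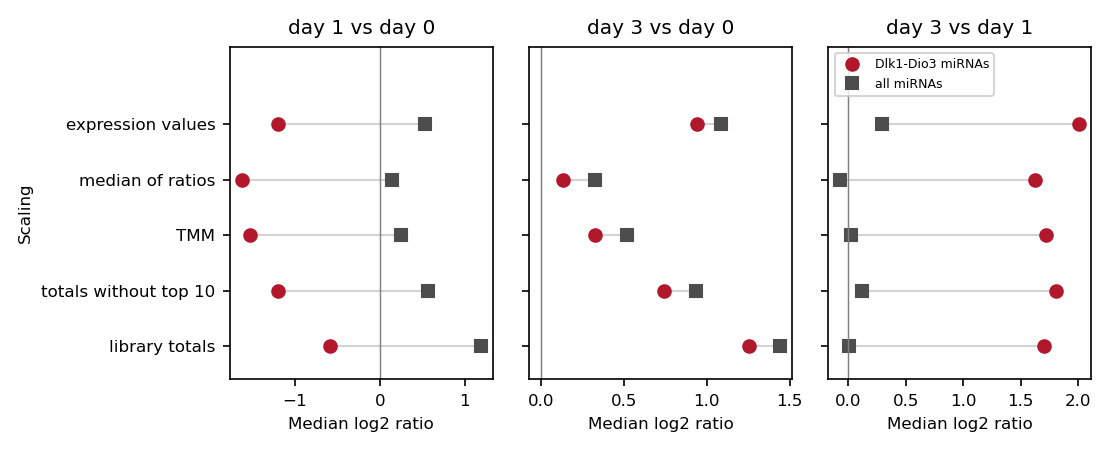
Median log2 ratio of the 66 Dlk1-Dio3 miRNAs (circles) and of all 513 miRNAs (squares) with at least 30 reads, for each pair of libraries and under 5 ways of scaling the reads (the expression values are the deposited values divided by their own totals). The gap between circle and square is nearly the same in each row of a panel, while the position of both moves with the scaling for the 2 comparisons with day 0.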

How the data were processed

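Small RNAs of 18 to 30 nucleotides from WT TA muscles on days 0, 1 and 3 were sequenced, 4 pooled samples to 1 library per day. The authors mapped the reads to mouse GRCm38.p6, and the submitters' processing notes name HISAT and Bowtie2 without a version. For each mature miRNA the authors deposited a raw read count, used here, and an expression value, treated as a score because how the authors made it is not stated in the sources used here. Among the members this deposited score was never above the read count, and at least 86.5% of it where they differed.

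Reads were divided by the library total. A ratio of CPM of at least 2 or at most 0.5, the fold threshold of the study's methods, was counted as higher or lower among miRNAs with at least 30 reads over the 3 libraries. A library at 0 was set to 3 reads. Intervals of ratios are exact conditional binomial, those of shares Wilson or exact Clopper-Pearson. With 1 library per time point no replicate model was fitted and conditions were not tested. The 3 libraries were assigned to days from their labels. Depth was 8507580, 6421056 and 9795076 reads.

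The members, lists and rules were chosen with earlier results of these data known. The miRNAs named were the 15 members with the highest mean CPM, the 5 highest and 5 lowest ratios of each pair among members with at least 100 reads, those of 10 precursors with described roles in muscle, the 5 precursors whose arm share moved most, and members at 0 in a library. miR-494-5p, miR-1193-5p, miR-3071-3p, miR-299b-3p, miR-362-3p, miR-376b-5p and miR-376c-5p were named after their values were seen, for a wide interval, a shared seed or overlapping sequence. So were miR-467a-5p, miR-669a-5p, miR-467b-5p and miR-297a-5p, as examples from another imprinted locus. The alternatives were TMM (edgeR 4.0.16) and median-of-ratios factors (DESeq2 1.42.0), totals without the 10 most abundant miRNAs or without the members, 1 CPM added, other read minimums, the deposited scores, a fold of 4, an interval wholly past 2-fold, and the fold of 2 joined with a Fisher's exact test of each miRNA's reads (Benjamini-Hochberg adjusted p of at most 0.001), whose p-values compare 2 libraries and are not given. Counting and intervals were tested on simulated data. The software was R 4.3.3, scipy 1.17.1, pandas 2.3.3, numpy 2.4.6 and matplotlib 3.10.9 under Python 3.11.15. The labels give a CTX volume in mL and a concentration in mM, and the study's methods give μl and μM.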

Additional observations from a re-analysis of the deposited data

Results flagged for a closer look

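miR-1247-3p lies in the same stretch of chromosome 12 but is not on the list of numbers that chose the members. It had 2, 6 and 12 reads on days 0, 1 and 3, or 0.235, 0.934 and 1.23 CPM (1.225 CPM on day 3 before rounding). It was singled out because its level after injury was above that of the day 0 library in data no comparison used. Its other arm, miR-1247-5p, was at 9.40, 8.41 and 9.19 CPM. The difference rests on few reads and was not tested.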

How the results depend on the processing

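The count of members at least 2-fold higher on day 3 than on day 1 was 48, and stayed between 35 and 58 under every alternative but a fold of 4, which gave 28. The 58 came without a minimum of reads (62.4% of 93 members, beside 15.4% of all 1138 miRNAs). The 35 came with at least 10 reads in both libraries (67.3%, beside 19.5%). No member was 2-fold lower under any alternative. For day 1 against day 0, the members higher (4) and lower (16) became 0 and 44 under TMM (32.8% and 24.4% of all miRNAs), 0 and 47 under the median of ratios (30.6% and 26.1%), and 1 and 39 both for totals without the 10 most abundant miRNAs (40.4% and 20.7%) and for the deposited expression values (38.8% and 20.1%). A fold of 4 gave 0 and 2 (31.4% and 1.56%), with intervals wholly past 2-fold 0 and 7, and 10 were lower with Fisher's test joined to the fold. For day 3 against day 0, the members higher (36) and lower (7) became 20 and 16 under TMM (30.3% and 24.2% of members beside 39.4% and 23.0% of all miRNAs), 16 and 17 under the median of ratios (35.7% and 25.5% of all) and 18 and 1 for a fold of 4 (37.8% and 2.73% of all), and 3 were lower with intervals wholly past 2-fold. The share of all miRNAs was not counted for the settings with intervals or Fisher's test. The members' counts in those settings therefore have no background beside them. The difference of medians between members and all miRNAs for day 1 against day 0 (-1.77) was -1.40 both with 1 CPM added (-1.3975) and for members with 10 reads or more in each of the 2 libraries (-1.3959). The members' share of the reads was 1.73% (1.725), 0.929% and 2.63% (2.626) of totals without the 10 most abundant miRNAs on days 0, 1 and 3, and 1.45% (1.445), 0.782% (0.7825) and 2.41% of the summed expression values. Of the counts, medians and shares under the alternatives 57 stayed within their limits and 29 moved, and of the values of single members and arms 462 stayed and 261 moved. The cause was not tested. Depth limits the members under 30 reads. No library could be left out and no paired analysis was possible because each time point is 1 library.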

Other observations

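Outside the members, miR-3544-5p from the same locus had 4, 0 and 3 reads on days 0, 1 and 3, at or near the floor of 3 reads in each library. Among miRNAs of other imprinted loci, miR-298-5p had 1, 6 and 200 reads and miR-296-3p 6, 11 and 248, while miR-296-5p from the same precursor had 284, 404 and 658 reads. The arms of miR-296 thus stood at different ratios between the same libraries, 5.17 for the 3p arm and 1.01 for the 5p arm on the log2 scale for day 3 against day 0.

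miR-1983, which shares the seed of miR-412-3p, had 34, 245 and 1979 reads, or 4.00, 38.2 and 202 CPM, whereas miR-412-3p had 8, 1 and 15 reads. miR-672-5p, which shares the seed of miR-377-5p, was at 0.705, 5.14 and 4.80 CPM, and miR-377-5p at 1.06, 0.623 and 4.19 CPM.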
